A study of Mus musculus with 12 samples.

Results

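Myelin and oligodendrocyte genes were followed in RNA sequencing of mouse prefrontal cortex after cocaine or saline in adolescence. The 36 genes were taken by name from a list of known myelin and oligodendrocyte genes. All 36 were found among the 28842 genes of the deposited table, and all 36 stood among the 13016 genes that passed the filter on low values, a mean of at least 1 FPKM (read counts scaled by gene length and library total). Male C57BL/6J mice labelled WT received 15 mg/kg cocaine in the cocaine group, or saline in the saline group, over postnatal days 28 to 42. As adults, animals of both groups went through place preference conditioning: a pre-test at day 75, training at days 76 and 77 with 1 mg/kg cocaine, and the test at day 78. The saline group had thus also received cocaine as adults. Brain tissue was taken 30 to 60 min after that test. There were 12 libraries, 6 per group, and the labels leave unsaid whether libraries and mice match singly, so p-values reflect library-to-library spread alone, which may be technical.

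Myelin is the multilayered membrane that oligodendrocytes wrap around axons, where it speeds conduction and supports the axon. Its making follows a set order: transcription factors such as Olig2 and Sox10 define the lineage, Myrf switches on the myelin programme, and the mature cell then makes large amounts of a few membrane proteins and of galactose-bearing lipids. In rodent cortex myelin is dense in the white matter below the grey matter and sparse in the upper layers. The depth and angle of a dissection therefore set how much white matter a piece of prefrontal cortex holds, and prefrontal myelination continues through adolescence.

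Recovered depth was 16.7 to 19.9 M reads per library. The labels also name a mesenchymal stem cell line, which did not match the neuronal content. Snap25, a synaptic fusion protein, averaged 375 FPKM. A time tag of day 0 or day 5 alternates with the replicate number, 3 libraries per group and tag, and its meaning is not given. The library saline 5 stood apart with 11208 normalised reads of Ttr, the transthyretin of choroid plexus, against at most 13.2 in each of the other libraries. The score difference and the median member difference are given with and without it. Correlations of other genes with the members, and the second component, are given with it only.

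The 36 genes varied together from library to library, and this shared variation was much larger than the difference between cocaine and saline. In the 12 libraries the members together took 0.345 to 1.19 percent of all reads in the cocaine group (median 0.556) and 0.233 to 1.45 percent in the saline group (median 0.836). The median Pearson correlation over the 630 pairs of members, on log2(normalised read count + 1), was 0.962. The mean over pairs was 0.877 for the members and 0.00259 for all genes tested. Component 1 of a principal component analysis held 94.9 percent of the members' variance, against 43.4 percent for all genes tested. These are descriptions over the same 12 libraries, whose genes share a library and its size factor, and no p-value was attached to them.

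A member score was formed per library by averaging, over the 36 genes, the log2 distance from each gene's own mean. In cocaine libraries 1 to 6 it was -0.84, -0.12, 0.25, 0.80, -0.41 and -0.18, and in saline libraries 1 to 6 it was 1.07, 0.13, -0.87, -1.28, 0.95 and 0.49. Both the highest library (saline 1) and the lowest (saline 4) were saline libraries, and the cocaine libraries lay within their range. The 2.35 log2 units between them correspond to a 5.09-fold span in members' level. The score averaged -0.08 ± 0.56 in cocaine and 0.08 ± 0.97 in saline libraries (SD, n = 6 each), a difference of -0.17, and the groups accounted for 1.30 percent of its variance. In bulk tissue, fewer oligodendrocytes and less myelin RNA per cell cannot be told apart. How much of the score is white matter in the dissected piece was not tested, since no measure of dissection was used here.

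The direction of the score difference turned with the time tag and with single libraries. Among libraries tagged day 0 the score averaged -0.33 in cocaine and 0.38 in saline, a difference of -0.72. Among those tagged day 5 it averaged 0.17 in cocaine and -0.22 in saline, a difference of 0.39 (n = 3 per group and tag). Without saline 5 the difference over all libraries was 0.01.

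**Figure D1:**
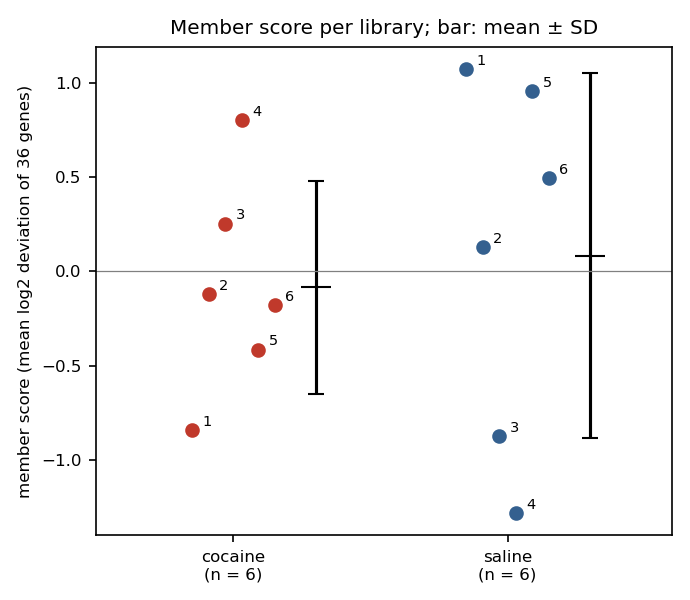
Member score (mean log2 deviation of the 36 genes) of each library, with replicate numbers beside the points, for cocaine at the left and saline at the right; the black bar is the mean ± SD of 6 libraries. Saline libraries hold both ends of the range, 1.07 in saline 1 and -1.28 in saline 4, and the 6 cocaine libraries lie between them.

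Of the 36 members, 33 correlated at 0.9 or above with the mean of the other 35, and 31 at 0.95 or above. Members apart from Cdk18 kept correlations of at least 0.798 when the 2 libraries farthest from the median score were left out. The highest library was saline 1 for 26 members, saline 5 for 9 and cocaine 1 for 1, which was Cdk18. The lowest was saline 4 for 28 members and cocaine 1 for 6, with cocaine 3 and saline 3 lowest for 1 each. Among the genes that were no members, 1.38 percent (179 of 12980) reached a correlation of 0.9 with the score.

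**Figure D2:**
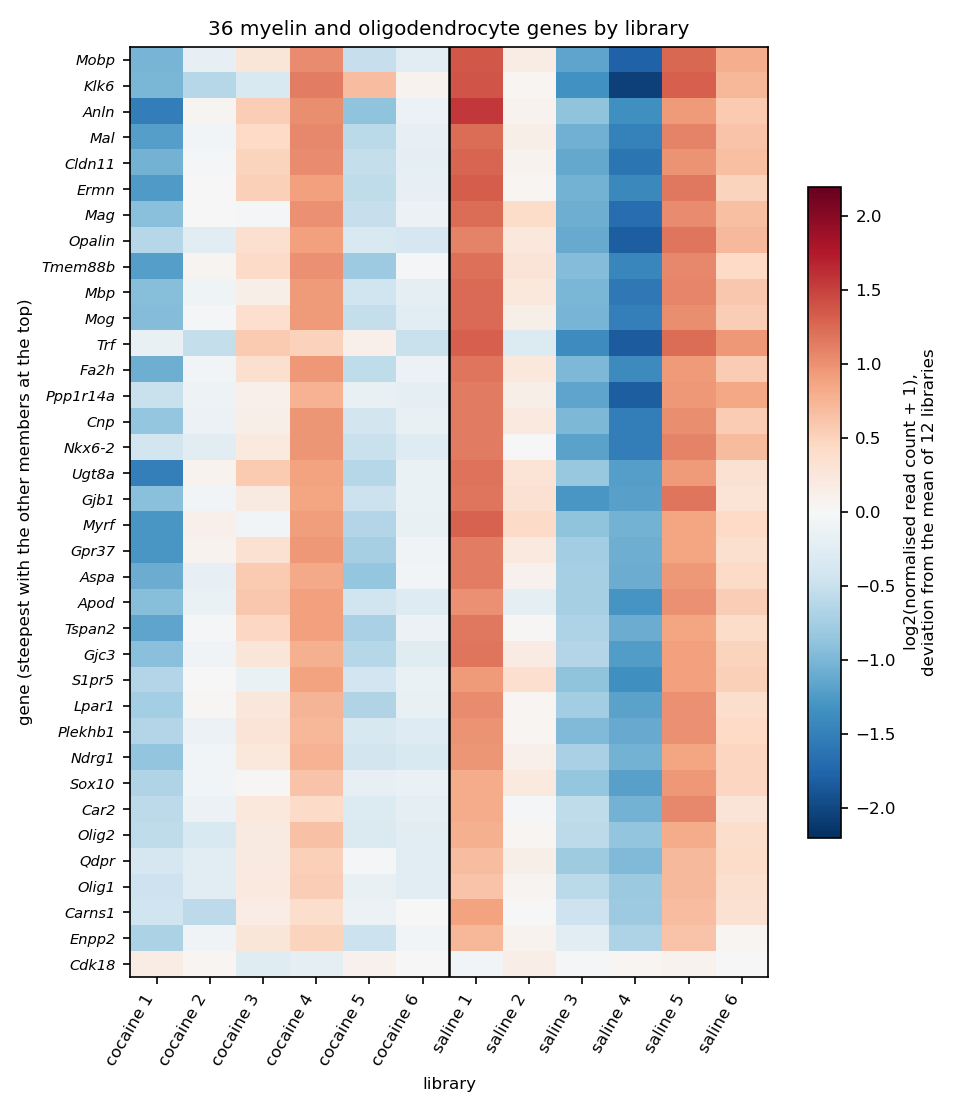
Each row is a member and each column a library, cocaine left of the black line and saline right of it; colour is the deviation of log2(normalised read count + 1) from the gene's mean over 12 libraries. All rows but Cdk18 at the bottom carry much the same bands, red in saline 1, saline 5 and cocaine 4 and blue in saline 4, saline 3 and cocaine 1. Trf departs in cocaine 1, with 166 normalised reads there against 129 in cocaine 2.

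The highest levels per length among the members belonged to genes for proteins of the myelin sheath itself: Mbp, Mobp, Mal, Cnp and Cldn11. Other sheath genes, such as Mag at 45.4 FPKM, lay below the enzyme gene Qdpr at 85.2 FPKM. Mbp, myelin basic protein, which holds the cytoplasmic faces of the compact sheath together, averaged 353 FPKM over the 12 libraries. Its normalised read count was 23148, 39861 and 84790 in cocaine libraries (lowest, median and highest) and 14901, 59091 and 105015 in saline libraries. The groups overlapped over the whole cocaine range, and the highest library of the 12 had 7.05 times the count of the lowest. The log2 difference was -0.19 ± 0.45 (SE; exact permutation p = 0.719, two-sided).

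Mobp, a small basic protein of compact myelin, averaged 134 FPKM. It had 6378, 11139 and 26725 normalised reads in cocaine libraries (lowest, median and highest) and 3776, 18529 and 33370 in saline libraries, a log2 difference of -0.22 ± 0.52 (SE). It was the steepest member: for each log2 unit in the mean of the other members it moved by 1.34 log2 units. Mog, a glycoprotein at the outer face of the sheath, tracked the others as closely as any member (r = 0.998), with 557, 990 and 2083 normalised reads in cocaine libraries (lowest, median and highest) and 382, 1387 and 2556 in saline libraries. Its groups overlapped and its log2 difference was -0.14 ± 0.45 (SE; exact permutation p = 0.788).

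Cnp, the cyclic nucleotide phosphodiesterase of uncompacted myelin, and Mag, an adhesion protein facing the axon, both had their lowest and their highest library in the saline group. Cnp had 3534, 5741 and 12445 normalised reads in cocaine and 2203, 8342 and 13929 in saline libraries (lowest, median and highest). Mag had 1439, 2577 and 5483 in cocaine and 855, 3949 and 6418 in saline libraries. In both genes the saline range enclosed the cocaine range. The other sheath and membrane members were Cldn11, the tight junction protein between sheath layers (113 FPKM), Mal, a proteolipid of sorting vesicles (123 FPKM), Plekhb1, a pleckstrin homology domain protein (93.7 FPKM), the tetraspanin Tspan2 (33.4 FPKM), the transmembrane gene Tmem88b (23.3 FPKM), the cytoskeletal protein Ermn (18.1 FPKM) and the glycoprotein Opalin (17.7 FPKM). Over the 12 genes of this kind the correlations with the other members were 0.971 to 0.998, and the highest library stood 4.30 to 8.84 times above the lowest.

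Sequence upstream of 4 members is shown because 3 of them are sheath genes that moved together and the last, Cdk18, did not move with them. The windows run from 250 to 41 bases before the start site that RefSeq gives on GRCm38.p6, each 210 bases, 5′ to 3′ on the gene's strand. Capitals mark matches to ACAAAG and AACAAT, short sequences of the kind bound by Sox proteins, to CTGGCAC, a consensus reported for Myrf, or to CAGCTG, an E-box, on either strand.
Mog, chr17:37023439-37023648, minus strand: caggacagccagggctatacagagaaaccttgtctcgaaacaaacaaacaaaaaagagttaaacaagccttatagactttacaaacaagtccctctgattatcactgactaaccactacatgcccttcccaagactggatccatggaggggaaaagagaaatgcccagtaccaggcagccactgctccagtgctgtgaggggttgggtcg
Mobp, chr9:120149492-120149701, plus strand: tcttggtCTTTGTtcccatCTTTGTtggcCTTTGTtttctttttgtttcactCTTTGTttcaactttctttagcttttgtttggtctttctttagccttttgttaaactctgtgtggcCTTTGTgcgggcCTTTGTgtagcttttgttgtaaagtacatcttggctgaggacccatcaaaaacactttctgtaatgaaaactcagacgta
Cnp, chr11:100574689-100574898, plus strand: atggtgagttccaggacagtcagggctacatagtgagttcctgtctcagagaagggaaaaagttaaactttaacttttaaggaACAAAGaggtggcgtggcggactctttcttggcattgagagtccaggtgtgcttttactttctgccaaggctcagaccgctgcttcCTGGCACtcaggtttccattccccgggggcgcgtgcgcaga
Cdk18, chr1:132139726-132139935, minus strand: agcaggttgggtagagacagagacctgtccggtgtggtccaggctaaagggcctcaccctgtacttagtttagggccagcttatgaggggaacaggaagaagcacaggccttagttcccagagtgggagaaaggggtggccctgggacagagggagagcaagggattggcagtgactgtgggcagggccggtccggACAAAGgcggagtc
The Mobp window held 6 matches, all of them the reverse strand form of ACAAAG, and the Cnp window held ACAAAG and CTGGCAC. Mog had 0 matches and Cdk18 had 1 match to ACAAAG. Of the 26 members with a window, 8 held ACAAAG (30.8 percent, against 14.2 percent of all 27025 windows), 5 held AACAAT (19.2 against 8.50 percent), 2 held CTGGCAC (7.69 against 3.49 percent) and 1 held CAGCTG (3.85 against 10.6 percent). Matches overlap nowhere in the 4 windows shown, and a match is a description of the letters only.

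Mog (ENSMUSG00000076439) is annotated at chr17:37010743-37023398, minus strand, Mobp (ENSMUSG00000032517) at chr9:120149707-120181484, plus strand, Cnp (ENSMUSG00000006782) at chr11:100574904-100591729, plus strand, and Cdk18 (ENSMUSG00000026437) at chr1:132112237-132139684, minus strand. Start and end of 35 members are the same in GENCODE M21, so these are coordinates of GRCm38.

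Transcription factors followed the same pattern, with smaller steps in Olig1, Olig2 and Sox10. Olig1, a basic helix-loop-helix factor of the whole lineage, had 1976, 2355 and 3922 normalised reads in cocaine and 1546, 3149 and 4430 in saline libraries (lowest, median and highest). It moved by 0.64 log2 units per unit of the other members. Olig2, which specifies the lineage, had a slope of 0.73, and Sox10, which sustains it and drives myelin genes, a slope of 0.86. Precursor cells also express all 3. Myrf, the factor that starts the myelin programme in mature cells, had a slope of 1.05, and Nkx6-2, a homeodomain factor of maturing oligodendrocytes, a slope of 1.11. The slopes are ratios of log2 changes within the same 12 libraries, and their differences were not tested.

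Myrf had the lowest group difference of all members. Its normalised read count was 403, 908 and 1860 in cocaine and 474, 1318 and 2417 in saline libraries (lowest, median and highest), and the groups overlapped. The log2 difference was -0.37 ± 0.42 (SE), with an unadjusted limma p of 0.394 and an exact permutation p of 0.461.

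Enzymes formed a further group of 7 members. Ugt8a, which makes the galactosylceramide of myelin, Fa2h, which hydroxylates its fatty acids, and Aspa, which cleaves N-acetylaspartate, had slopes of 1.11, 1.13 and 1.02. Car2, a carbonic anhydrase (79.5 FPKM), Qdpr, which recycles tetrahydrobiopterin (85.2 FPKM), Carns1, which makes carnosine, and Enpp2, which releases lysophosphatidic acid, were flatter, with slopes of 0.77, 0.69, 0.62 and 0.58. Enpp2 had 1909, 2963 and 4373 normalised reads in cocaine and 1940, 3231 and 5140 in saline libraries (lowest, median and highest). Its highest library stood 2.69 times above its lowest, the narrowest span after Cdk18. Of the exon bases of Carns1, 40.3 percent are shared with Gm17552 on the opposite strand and 29.7 percent with another transcript on its own strand. For Qdpr 18.6 percent and for Nkx6-2 12.9 percent are shared with a gene on the opposite strand, and the strand setting of the counting is not given in the sources used here, so counts of these genes are uncertain.

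Receptors and gap junction genes numbered 5. Gpr37, an orphan receptor that restrains oligodendrocyte maturation in mice, S1pr5, a sphingosine phosphate receptor, Lpar1, a receptor for the product of Enpp2, and the connexins Gjc3 and Gjb1 correlated at 0.966 to 0.989 with the other members and had slopes of 0.95 to 1.10. Among the secreted members, Apod, a lipid-carrying lipocalin, correlated at 0.978. Trf, the iron carrier transferrin, and Klk6, a secreted protease, were looser, at 0.888 and 0.894. Trf had 129, 184 and 279 normalised reads in cocaine and 52.0, 257 and 466 in saline libraries (lowest, median and highest). It shares 63.5 percent of its exon bases with Gm20425 on the same strand, which was listed at no more than 1.10 normalised reads in any library, so its level is uncertain. Klk6 was the lowest member, at 1.01 FPKM just past the filter, with 9.94, 19.2 and 46.5 normalised reads in cocaine and 4.25, 28.3 and 55.9 in saline libraries (lowest, median and highest). Its mean was 0.893 FPKM in cocaine and 1.13 FPKM in saline libraries. It thus passed the filter only through the saline group, and its lower level in cocaine carries no weight.

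Of the last 4 members, Anln, an actin and septin scaffold, Ppp1r14a, an inhibitor of myosin phosphatase, and Ndrg1, a cytoplasmic protein of myelinating cells, followed the score at 0.966, 0.961 and 0.993. Cdk18, a kinase of the cyclin-dependent family, did not. It had 873, 1071 and 1186 normalised reads in cocaine and 1012, 1067 and 1174 in saline libraries (lowest, median and highest), a span of 1.36 times over all 12. Its correlation with the other members was -0.374 and its slope was -0.06. The log2 difference between groups was -0.05 ± 0.09 (SE; exact permutation p = 0.509), the smallest SE among the members.

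Between the groups, 35 of 36 members were lower in cocaine and none passed the test. Klk6 is among the 35, although it passed the filter on low values only through the saline group. The share of all genes tested that were lower was 46.3 percent. Member differences ran from -0.37 to 0.00, with a median of -0.18, beside a median of 0.01 for all genes tested (log2, cocaine minus saline). At an unadjusted p under 0.05 there were 0 members by limma, where 1.14 percent of all genes tested were called. There were also 0 by edgeR's quasi-likelihood test (1.58 percent of genes) and 0 by DESeq2 (1.48 percent) on the recovered reads. At an adjusted p under 0.05 edgeR called 0 members and 0 percent of genes, and DESeq2 called 0 members and 0.0104 percent of genes. With adjustment over all genes limma called 0 members and 0 percent of genes, and every member had an adjusted p of 1.00. The groups overlapped in all 36 members, and 0.0768 percent of all genes tested did not overlap. The members moved together (median r = 0.962), so the 35 lower genes are not separate observations.

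The error of these differences was large. The median SE of a member was 0.43, against 0.13 over all genes tested, and the SD of a member over the 12 libraries had a median of 0.84 log2 units, at or above which only 2.37 percent of genes tested stood. Cocaine and saline accounted for a median of 1.26 percent of a member's variance, against 2.08 percent for all genes tested. The direction rested on single libraries: the median member difference was 0.03 when saline 1 was left out, 0.01 when saline 5 was and -0.01 when cocaine 1 was. Leaving out saline 4 gave -0.45, and leaving out saline 3, cocaine 4, cocaine 5 or saline 6 gave -0.36, -0.35, -0.10 or -0.08. It was 0.04 with limma's library weights and -0.31 by edgeR or DESeq2, which compare group means of counts rather than means of logs.

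When the mean of the other members entered the limma model as a covariate, the members' group differences spread evenly around 0. There were 18 lower and 18 higher members, from -0.20 to 0.20 with a median of 0.00 (log2), and 47.6 percent of all genes tested were lower in that model. The median SE was 0.09 with the covariate, against 0.43 without it. With the covariate 0 members had an unadjusted p under 0.05 (1.32 percent of genes tested) or an adjusted p under 0.05 (0 percent). Myrf stood at -0.20 ± 0.13, Gjc3 at -0.12 ± 0.07, Cldn11 at 0.12 ± 0.07, and Mbp at 0.00 ± 0.07 (log2, SE). A difference of all members together would be taken up by the covariate, so this model speaks only of members that depart from the rest. Because each member is set against the others, the balance around 0 largely follows from the model and is no result about the groups.

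**Figure D3:**
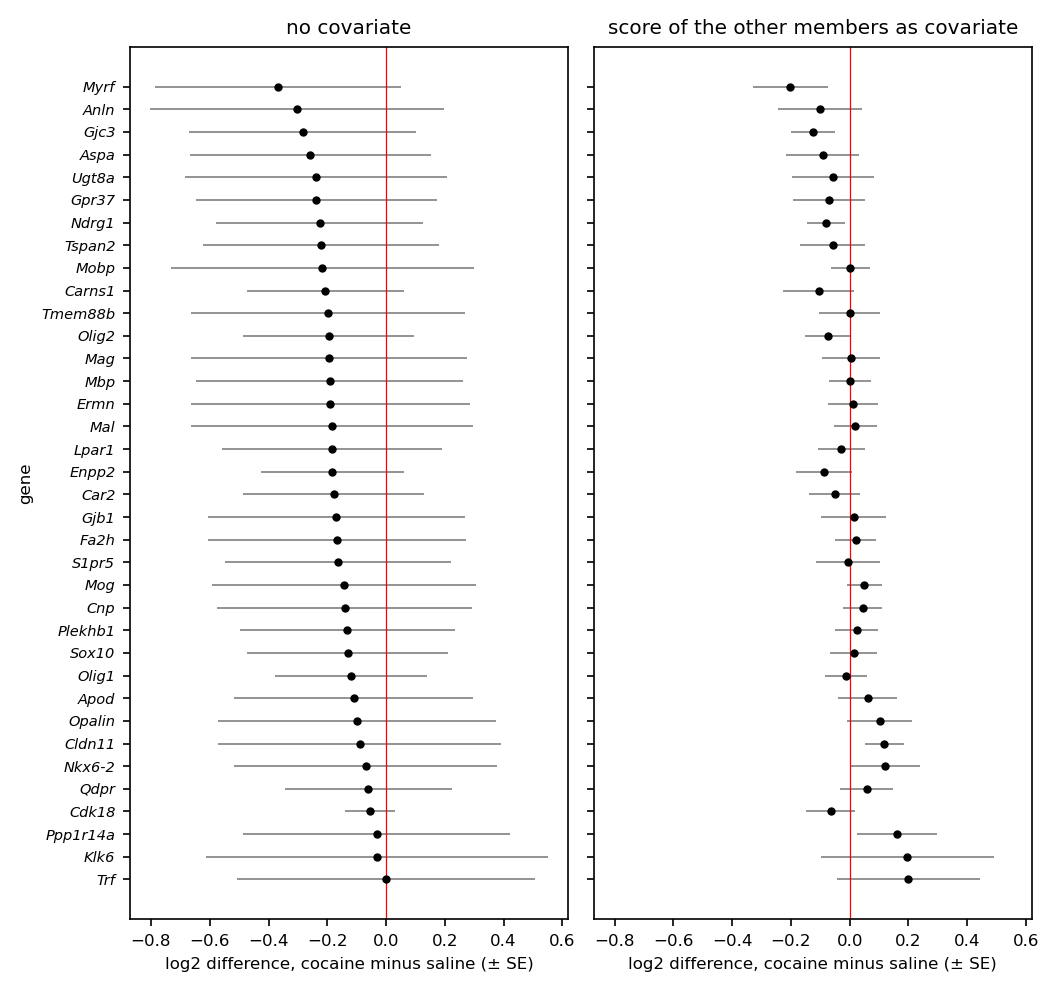
Log2 difference, cocaine minus saline, of each member with its SE, without a covariate at the left and with the mean of the other members as covariate at the right, both on 1 scale. At the left 35 of 36 points lie below 0 with a median SE of 0.43, and at the right 18 lie on each side with a median SE of 0.09. The balance at the right largely follows from the model.

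Arc, Nr4a1 and Dusp1, the genes that the authors' deposited table calls at an adjusted p of 0.0188, had little correlation with the score. Arc, a cytoskeletal protein of active synapses, differed between cocaine and saline by 0.97 ± 0.20 without and 0.98 ± 0.21 with the member score as covariate (log2, SE). Nr4a1, an orphan nuclear receptor, differed by 0.53 ± 0.10 and 0.52 ± 0.10, and Dusp1, the phosphatase named in the series title, by 0.66 ± 0.13 and 0.65 ± 0.13. Their correlations with the score were -0.07, -0.28 and -0.13, and they held ranks 1 to 3 by p with and without it. The authors called these genes from the same libraries, so their high ranks here are no separate support. By limma none of the 3 reached an adjusted p under 0.05, with or without the covariate.

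Outside the members, the genes most like the score over the 12 libraries were Gsn, an actin-severing protein (r = 0.993), Bcas1, a marker of newly formed oligodendrocytes (0.990), the adhesion molecule Mcam, Prr18 and Tmbim1 (0.988 each), Litaf and Ttyh2 (0.986 each), and Sox2ot, Kcnk13, Carhsp1 and Gltp, a glycolipid transfer protein (0.985 each). Simc1, Osbpl6, Gfra2, Rasl10a, Ak5 and Lrpap1 lay at the opposite end, from -0.925 to -0.90. These 6 moved in small steps: Ak5, an adenylate kinase, changed by -0.20 log2 units per unit of score, whereas Bcas1 changed by 1.14. Each of these genes had an adjusted limma p of 1.00 between groups.

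A list of 30 other oligodendrocyte genes gave the same picture. All 30 were lower in cocaine, where 46.3 percent of all genes tested were lower. The median difference was -0.17 (log2), and 0 passed the test. Their median correlation with the score was 0.94, so they and the members are not separate observations. The 3 with the smallest p were Sema4d, a semaphorin, at -0.21 ± 0.13, Pls1, an actin bundler, at -0.37 ± 0.31, and Pllp, plasmolipin, at -0.29 ± 0.30 (log2, SE). With the member score as covariate 20 of the 30 were lower, with a median of -0.04 (log2), where 47.6 percent of all genes tested were lower. Tppp, a tubulin polymerisation protein, had a correlation of -0.17. Of 6 genes of myelin lipid synthesis, 4 were lower and 2 higher, with 0 past the test and a median of -0.12. Elovl1, Gal3st1 and Elovl7, which elongate fatty acids or sulfate galactosylceramide, stood at -0.16 ± 0.26, -0.15 ± 0.31 and -0.12 ± 0.27, while Sptlc2, a subunit of the enzyme that starts sphingolipid synthesis in all cells, correlated at -0.37 with the score.

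Neuronal partners of myelin did not follow it as a list. Of 8 axon genes of the node and its flanks, 5 were lower and 3 higher, with 0 past the test and a median correlation of -0.47 with the score. Scn8a, the sodium channel of mature nodes, was lowest at -0.61. Cntn2, a contactin that oligodendrocytes also make, was highest at 0.84 and differed by -0.24 ± 0.23 between groups (log2, SE). Nfasc, which has neuronal and glial forms, correlated at 0.51 and differed by -0.19 ± 0.13. Kcna1, a potassium channel beside the paranode, differed by -0.36 ± 0.48.

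Genes of precursors and newly formed oligodendrocytes followed the score unevenly. Bcas1 and Enpp6, which mark newly formed oligodendrocytes, correlated at 0.99 and 0.96 with it, and Gpr17, a receptor of committed cells, at 0.41. The precursor genes ranged widely, with Vcan at 0.84, C1ql1 at 0.80, Neu4 at 0.65, Lhfpl3 at 0.53, Cspg4 at 0.16, Pdgfra at 0.14 and Sox6 at -0.23. Over the 10 genes of that list 8 were lower and 2 higher, 0 passed the test, and the median difference was -0.12 (log2). Pdgfra had 550, 831 and 1029 normalised reads in cocaine and 634, 870 and 914 in saline libraries (lowest, median and highest), a far narrower range than any sheath gene.

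**Figure D4:**
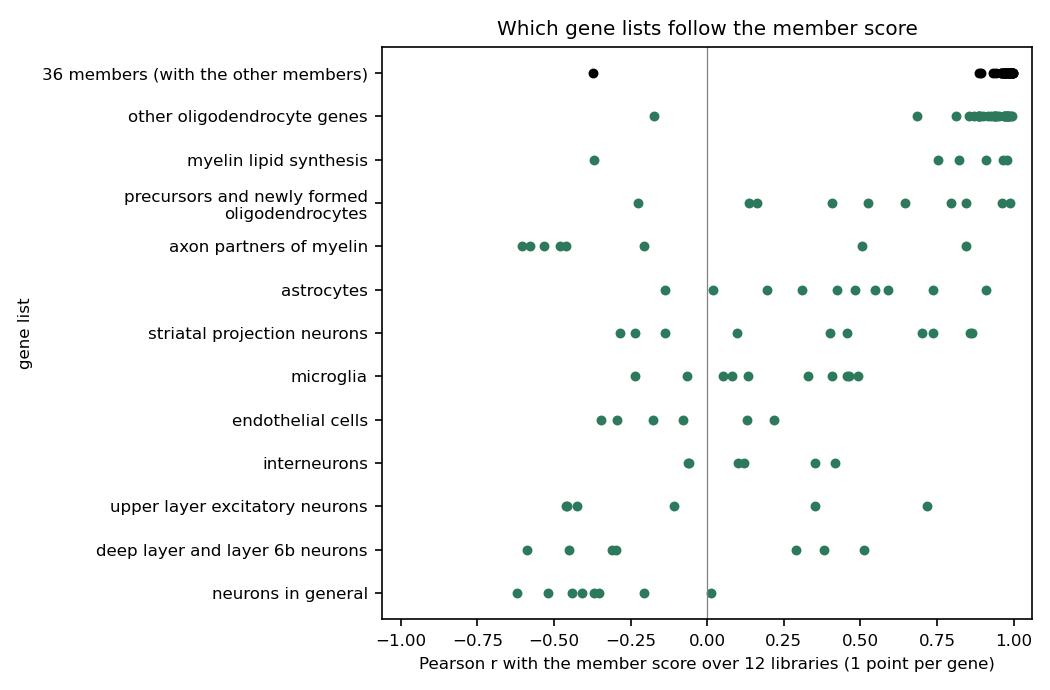
Pearson r with the member score over 12 libraries, 1 point per gene, for the members (each against the other 35) and 12 marker lists. Members and other oligodendrocyte genes lie mostly near 1, with Cdk18 at -0.374, Tppp at -0.17 and Sema4d at 0.69 the lowest, while the 8 genes of neurons in general lie from -0.62 to 0.01.

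Markers of other tissue compartments moved with the score in part. Astrocyte genes had a median correlation of 0.45, with Slc1a2, a glutamate transporter, at -0.14 and Aldoc, an aldolase of astrocytes, at 0.74. Gfap, an astrocyte filament that is high in white matter, stood at 0.91. The summed level of the 10 astrocyte genes was 46308 to 64043 normalised reads in cocaine and 49888 to 60951 in saline libraries, and 6 were lower and 4 higher with 0 past the test. Striatal projection neuron genes had a median of 0.43, with Adcy5 at -0.24 and Ppp1r1b at 0.40. Penk, Adora2a and Drd2 stood at 0.87, 0.74 and 0.70, and Drd1 at -0.28. The sum of the 10 striatal genes was 7286 to 9749 in cocaine and 6621 to 10414 in saline libraries, and 8 were lower and 2 higher with 0 past the test. Gfap, Penk, Adora2a, Drd2 and Drd1 were chosen after their values were seen. Neurons in general had a median of -0.39, with Snap25 at 0.01 and Syt1 at -0.62.

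In the other lists median correlations were 0.23 for microglia (Csf1r 0.05, C1qa 0.33), 0.11 for interneurons (Sst 0.12, Gad1 0.35), -0.13 for endothelial cells (Flt1 -0.35), -0.27 for upper layer neurons (Lamp5 0.35, Rasgrf2 -0.46), -0.30 for deep layer neurons (Bcl11b -0.45, Fezf2 -0.31) and 0.37 for red blood cells (Hbb-bs 0.40). All 4 red blood cell genes were higher in cocaine, with a median difference of 0.50 (log2). At an unadjusted limma p under 0.05 there was 1 of them (1.14 percent of all genes tested), and at an adjusted one 0 (0 percent). The 4 genes mark 1 cell type in the same libraries and are not separate observations. Hbb-bs, a beta globin, differed by 0.47 ± 0.21 (log2, SE). Higher and lower genes numbered 7 and 1 for neurons in general, 4 and 2 for upper layer neurons, 1 and 6 for deep layer neurons, 3 and 3 for interneurons, 2 and 8 for microglia and 2 and 4 for endothelial cells, with 0 of them at an unadjusted p under 0.05. Of 8 choroid plexus genes only Ttr passed the filter on low values, through saline 5. Prx, the periaxin of Schwann cell myelin, had 8.79 to 27.9 normalised reads over the 12 libraries, below the filter on low values. Egr2, which Schwann cells need but active neurons also induce, differed by 0.32 ± 0.11 (log2, SE) and did not pass the adjusted threshold. The part of any of these cell types in the members' differences was not tested.

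Component 2, which held 2.90 percent of the members' variance, ran in part with gene length. Members highest on it were Anln, Ugt8a, Gpr37, Tspan2, Aspa and Myrf, whose gene lengths (exon bases counted) are 4536 to 9063. Members lowest on it were Trf, Klk6, Ppp1r14a, Opalin, Nkx6-2 and Qdpr, with lengths of 1367 to 3320. Between these ends some members went against length. The long Mbp (8403) and Mobp (6849) had loadings of -0.03 and -0.06, and the short Mog (1704) and Cldn11 (1870) of 0.02 each. Across the 36 members the correlation of the loading with log2 gene length was 0.57 (Spearman's rho 0.56), given across genes, which are not independent replicates. Trf and Klk6 weighed most in this component, with loadings of -0.45 and -0.44, ahead of Anln at 0.27. The level of Trf is uncertain and Klk6 had few reads, and the correlation was not computed without them. In cocaine libraries 1 to 6 component 2 was -1.46, 0.79, 0.58, 0.31, -1.54 and 0.18, and in saline libraries 1 to 6 it was 0.17, 0.30, 0.67, 0.92, -0.33 and -0.59. Cocaine 1, cocaine 5, saline 5 and saline 6 were the only libraries of the 12 below 0. In the same 4 libraries long genes outside the members were lowest relative to short ones, with slopes of -0.082, -0.064, -0.085 and -0.074 log2 units per doubling of length. In the other 8 libraries the slope was -0.012 to 0.083.

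**Figure D5:**
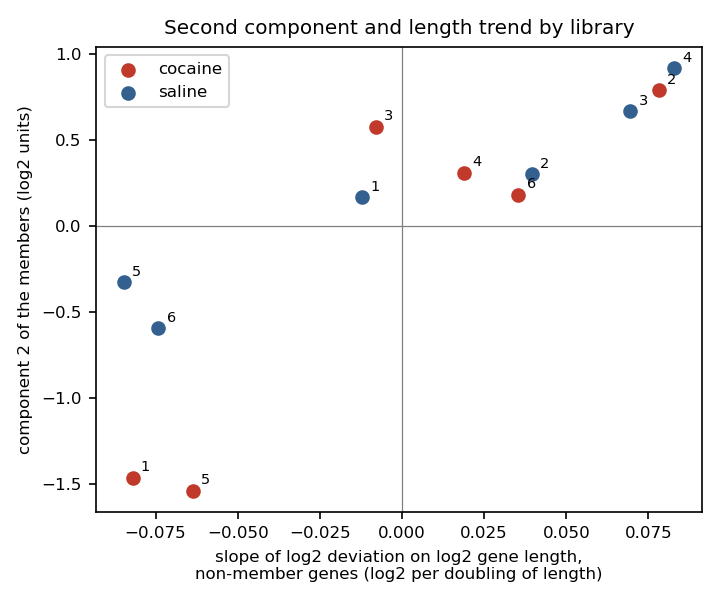
Component 2 of the members (vertical axis, log2 units) against the slope of log2 deviation on log2 gene length over genes that are no members (horizontal axis), 1 point per library with its replicate number, cocaine in red and saline in blue. Cocaine 1, cocaine 5, saline 5 and saline 6 lie at the lower left, with slopes of -0.064 or below and component 2 below 0.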

How the data were processed

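RNA from 12 prefrontal cortex samples was sequenced after TruSeq library construction, per the labels' protocols. The submitters' processing notes name HISAT2 2.0.5 and a human build that did not match the mouse gene IDs. How reads were counted, with which annotation and strand setting, is not given in the sources used here. The authors deposited 1 table, named FPKM although no division by length was found in it: each value is a signal, a read count over the size factor of its library. Values were whole multiples of 1 read (100 percent of them in all 12 libraries, tolerance 0.01 read), and reads were recovered that way. Per the file headers the table also holds the authors' log2 fold changes, p-values and adjusted p-values, and a gene length in bases, a quantity of another kind.

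Normalised read counts in the text are the deposited values. FPKM was computed from value, gene length and column sum. limma 3.58.1 in R 4.3.3 (variance trend, two-sided) was fitted on log2(value + 1) over the 13016 genes whose mean FPKM reached 1, and Benjamini-Hochberg adjustment covered all of them, with a threshold of 0.05. Differences are log2 of cocaine over saline on that scale. The pseudocount of 1 shrinks the differences of genes with few reads. An exact permutation test over all 924 splits cannot give a p below 0.00216. edgeR 4.0.16 and DESeq2 1.42.0 were run on the recovered reads. The model code was tested on simulated data. Other pseudocounts, filters, scalings and variance models, library weights, a replicate block, time tag or member score as covariate, and omission of single libraries were tried; no alternative was added after the files were seen.

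The members, lists and tests were chosen with earlier results of these data known. All members are reported; other genes were named by rule: the 12 with the highest and 6 with the lowest correlation with the score, the 3 smallest p in each of the other oligodendrocyte, lipid and axon lists, and the 1 or 2 most abundant of each other list. Unnamed predicted genes were passed over, and some genes are not reported here. Further names were chosen after their values were seen: the genes called in the authors' table, Tppp, Sptlc2, Scn8a, all precursor genes but Bcas1 and Pdgfra, and those said so in the text. Promoter windows are from RefSeq.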

Additional observations from a re-analysis of the deposited data

Results flagged for a closer look

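In cocaine 4, 4 members stood apart from the other 5 cocaine libraries by a gap that was large for the range of the group: Mag at 5483 normalised reads, Nkx6-2 at 637.5, Ppp1r14a at 603.9 and S1pr5 at 648.4. The gap took 0.685, 0.64, 0.627 and 0.706 of the group's range, above Dixon's 95% critical value for 6 samples. The score of cocaine 4, 0.80, was the highest of its group. In saline 5, Ttr stood at 11208 normalised reads, a gap of 0.999 of the range. The share of reads from mitochondrial genes in cocaine 3, 5.43 percent, was the highest of its group, with a gap of 0.67 of the range. This rule was applied to 94 groups of values, and chance alone marks about 1 in 20. The 4 members share 1 library and move together, so their marks are not separate observations.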

How the results depend on the processing

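The median pairwise correlation of the members was 0.962 to 0.982 under the pseudocounts, filters, scalings, time tag, replicate block and within-group means, and 0.954 to 0.967 with 1 library left out. It was not run with library weights, and it takes no value from the edgeR, DESeq2 or variance trend settings. Genes called over the whole table stayed at 0 except for 3 by DESeq2, none of them a member. The group direction of the members did not hold. The count of lower members was 10 with library weights and 14 to 36 with 1 library left out (14 without saline 1, 16 without saline 5, 21 without cocaine 1), and the median member difference was -0.45 to 0.03 with 1 library left out. Of 967 alternative values of single members 848 kept their direction and 119 reversed, 71 of these with a library left out, and 0 passed the threshold (lowest adjusted p 1.00). Log2 differences that reversed under library weights were Mbp 0.035, Mog 0.070, Mag 0.037, Mobp 0.053, Cnp 0.082, Cldn11 0.15, Ermn 0.083, Opalin 0.039, Mal 0.092, Aspa 0.012, Sox10 0.034, Gpr37 0.028, Tspan2 0.046, Fa2h 0.062, Gjb1 0.039, Nkx6-2 0.15, Qdpr 0.011, Apod 0.13, Plekhb1 0.037, Tmem88b 0.076, Ppp1r14a 0.14, Klk6 0.32, S1pr5 0.017, Lpar1 0.047 and Anln 0.020. With the score of the other members as covariate they were Mog 0.050, Mag 0.00430, Mobp 0.00261, Cnp 0.045, Cldn11 0.12, Ermn 0.011, Opalin 0.10, Mal 0.019, Sox10 0.013, Fa2h 0.020, Gjb1 0.013, Nkx6-2 0.12, Qdpr 0.057, Apod 0.061, Plekhb1 0.023, Ppp1r14a 0.16 and Klk6 0.20. Trf, at 0.00, changed sign at -0.40 under DESeq2 on recovered reads, -0.0055 under TMM scaling, -0.40 under edgeR quasi-likelihood on recovered reads, -0.00272 under equal sums per gene length, -0.012 under pseudocount 5 and -0.00197 under upper-quartile scaling. With 1 library left out the differences of the 25 members that reversed ranged as follows: Mbp -0.52 to 0.039, Mog -0.46 to 0.090, Mag -0.55 to 0.035, Mobp -0.59 to 0.034, Cnp -0.46 to 0.072, Cldn11 -0.42 to 0.16, Ugt8a -0.50 to 0.037, Ermn -0.49 to 0.056, Opalin -0.47 to 0.13, Mal -0.50 to 0.043, Sox10 -0.38 to 0.046, Olig1 -0.29 to 0.011, Fa2h -0.47 to 0.051, Gjb1 -0.44 to 0.050, Nkx6-2 -0.38 to 0.15, Trf -0.36 to 0.26, Car2 -0.40 to 0.016, Qdpr -0.26 to 0.077, Apod -0.38 to 0.081, Plekhb1 -0.37 to 0.056, Tmem88b -0.50 to 0.027, Ppp1r14a -0.40 to 0.20, Klk6 -0.44 to 0.24, S1pr5 -0.45 to 0.0079 and Lpar1 -0.44 to 0.0052. The cause was not tested, except that the covariate removes shared variation by construction. Samples that share a replicate number did not deviate together (correlations -0.40 to 0.43, 2 of 6 above 0.1, and 0 pairs that correlate best with their own number). With the replicate block 0 genes were called, the median member difference was -0.18 and 35 members were lower. Depth limits only Klk6, at 4.25 normalised reads in its lowest library.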
